A study of Mus musculus with 2 samples.

Results

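Serpins and other protease inhibitors were compared between cells with a bright Lgr6 reporter and cells with a bright Lgr5 reporter, both sorted from mouse dorsal skin. The members were all non-control probes whose gene name in the scanner tables was that of a serpin of clades A to I, a Spink, Spint or Wfdc gene, or Slpi, Csta, Cstb or Cst3. There were 103 such probes, of 79 genes, among the 41174 probes and 27699 named genes or unnamed probe targets of the array. The Lgr6-high cells came from Lgr6-EGFP-ires-CreERT2 knock-in mice and the Lgr5-high cells from Lgr5-EGFP-ires-CreERT2 knock-in mice, so that all mice carried a knock-in reporter and no unmarked skin cells were compared. Each sort combined 3 mice, whose age and sex the labels do not give, and green fluorescent protein stood under the control of the named receptor gene. Both populations were hybridised together on each of 2 two-colour Agilent arrays. On array 1 the Lgr6-high RNA carried Cy5 and the Lgr5-high RNA Cy3, and on array 2 the dyes were exchanged.

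Serpins are proteins of a common fold. Most inhibit serine or cysteine proteases by offering a reactive loop that the protease cleaves and is then trapped on, while a few have lost inhibition and act as chaperones or signals. Clade B serpins remain largely inside the cell and are abundant in stratified epithelia, whereas most of the other clades are secreted. Cystatins block papain-like cysteine proteases such as the lysosomal cathepsins. Kazal-type (Spink), Kunitz-type (Spint) and WAP-domain (Wfdc, Slpi) inhibitors act mainly on trypsin-like, chymotrypsin-like and elastase-like serine proteases, and in the epidermis such inhibitors restrain the kallikreins that loosen the cornified layer.

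The probes behind the genes that differed at least 2-fold are given here because each ratio below was read from these 60 bases. They are written 5′ to 3′ on the transcript strand, as the scanner tables list them. The Serpinb2 probes lie at chr1:109421496-109421555 (probe a) and chr1:109421456-109421515 (probe b), plus strand of mm9, and the 20 bases that they share are in capitals.
Serpinb2, probe a: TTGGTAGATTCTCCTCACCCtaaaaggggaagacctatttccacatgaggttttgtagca
Serpinb2, probe b: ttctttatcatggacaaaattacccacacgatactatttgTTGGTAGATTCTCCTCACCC
Serpina3g, chr12:105480045-105480104, plus strand: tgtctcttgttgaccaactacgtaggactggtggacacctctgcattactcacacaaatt
Cstb, probe a, chr10:77890058-77890117, plus strand: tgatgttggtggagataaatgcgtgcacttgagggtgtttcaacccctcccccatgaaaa
Cstb, probe b, chr10:77889690-77889749, plus strand: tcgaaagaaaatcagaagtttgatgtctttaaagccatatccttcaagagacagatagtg
Serpinb1a, chr13:32934722-32934781, minus strand: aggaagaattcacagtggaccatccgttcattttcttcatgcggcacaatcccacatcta
Serpinb10, chr1:109443390-109443449, plus strand: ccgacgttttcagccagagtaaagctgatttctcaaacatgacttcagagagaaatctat
Serpinh1, chr7:106493971-106494030, minus strand: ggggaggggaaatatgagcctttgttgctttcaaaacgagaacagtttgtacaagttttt
Serpinf1, chr11:75223568-75223627, minus strand: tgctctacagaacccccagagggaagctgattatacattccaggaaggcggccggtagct
Spink2, chr5:77634154-77634213, minus strand: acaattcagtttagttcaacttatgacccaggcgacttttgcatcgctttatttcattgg
No run of more than 11 bases was shared between the probe a measured member was read from and a probe of another member. Second probes, such as probe b of Serpinb2 and of Cstb, were compared only with the probes that other measured members were read from. Whether paralogues with no probe here bind the same probes was not tested, and Serpina3g and the clade B serpins belong to families with many close copies in the mouse.

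Of the 103 probes, 19 passed the filter, which asked for a signal well above background in at least 1 of the populations on both arrays. They measured 16 of the 79 genes. Of the 84 probes that did not pass, 75 showed no signal well above background in either dye on either array, and their mean log2 ratios lay between -0.24 and 0.18. Few probes of any kind were bright enough: in Cy3 31.6% of spots cleared background on array 1 and 33.3% on array 2, and in Cy5 15.3% and 16.2%. The lowest normalised intensity well above background was 82.2 and 58.3 in the Lgr6-high channel on arrays 1 and 2, and 60.6 and 88.8 in the Lgr5-high channel. The reporter genes were read as a check of the labels. Lgr5 had a log2 ratio of -1.83 ± 0.12 by 1 probe while its other probe was at background, and neither Lgr6 probe passed the filter. Lgr6 itself therefore could not check its label.

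Log2 ratios below are of Lgr6-high over Lgr5-high, given as mean ± SD of 2 arrays, and levels are normalised intensities on a linear scale that include an added constant of 50. Nothing in the labels gives the arrays separate RNA, and they were counted as a single replicate with exchanged dyes. No test of the populations was possible, and the SD covers only the spread between hybridisations. A gene was called where the mean ratio was at least 2-fold (1 on the log2 scale) and each array had a ratio of at least 0.5 with that sign. In these bulk samples, fewer cells of a type and less RNA per cell cannot be told apart. The populations came from different mouse lines, so differences between lines or animals cannot be told apart from those between populations.

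Among the 16 measured members 5 were called higher in the Lgr6-high cells, namely Serpinb2, Serpina3g, Cstb, Serpinb1a and Serpinb10. The 3 called higher in the Lgr5-high cells were Serpinh1, Spink2 and Serpinf1. The other 8 were not called, and all 16 had the same sign on both arrays, as did 72.5% of all genes. Over the 6195 genes compared, 7.28% were called higher in Lgr6-high cells and 4.76% in Lgr5-high cells, together 12.0%. Limma with the same 2-fold minimum called the same numbers of members, 5 and 3, beside 7.39% and 4.87% of all genes. Serpinb2 and Serpina3g differed at least 4-fold, as did 2.26% of all genes. The members' median ratio was 0.73, beside -0.05 for all genes. For 8 of the 16 members only 1 population was above background on both arrays, and passing through the brighter population favours a difference, so the count describes the members that passed and not the families. With both populations required to be above background on both arrays, 4 of 9 members were called (Cstb, Serpinb1a, Serpinh1 and, by its probe b, Serpinb2), beside 12.6% of 4504 genes. The split of 5 and 3 was 3 and 1 without background subtraction. The split over all genes, 451 and 295, was 958 and 958 by the ratios of the scanner software, 212 and 204 with unsubtracted signals, 124 and 151 with the background model fitted on all spots, and 134 and 57 with median centring.

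**Figure D1:**
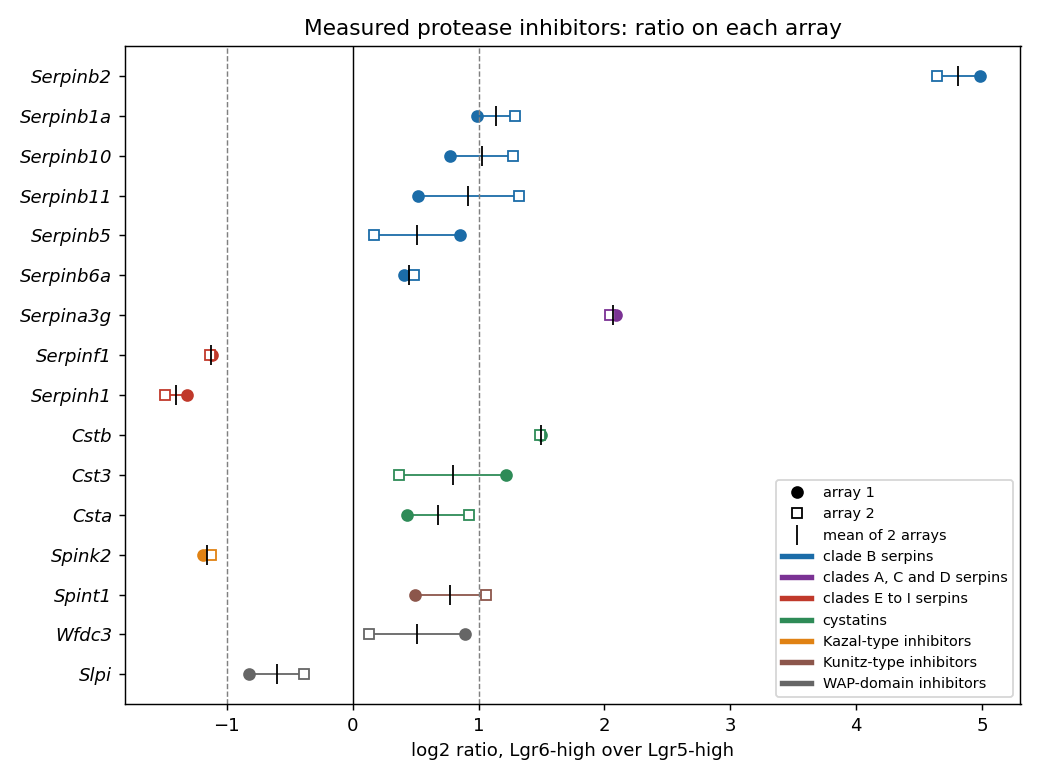
Log2 ratio of Lgr6-high over Lgr5-high (x axis) for the 16 measured members (rows, coloured by inhibitor family). Filled circles are array 1, open squares array 2 and bars their mean, with dashed lines at 2-fold. Serpinb2 stands alone near 4.81, the cystatins and clade B serpins lie right of 0, and Serpinf1, Serpinh1, Spink2 and Slpi lie left of it.

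Of the 25 clade B serpins on the array 6 were measured, and 3 were called higher in the Lgr6-high cells, led by Serpinb2. Serpinb2 encodes plasminogen activator inhibitor 2, which inhibits urokinase and is made by differentiating keratinocytes. Probe a had normalised intensities of 2729 and 3235 in Lgr6-high cells on arrays 1 and 2, against 86.4 and 130 in Lgr5-high cells. The Lgr6-high signal was far above the Lgr5-high signal on both arrays, and Lgr5-high cells were above background on 1 of them. The log2 ratio was 4.81 ± 0.24, a 28.1-fold difference, and it ranked 4 of 6195 genes toward Lgr6-high cells. Probe b, which shares 20 of its 60 bases with probe a, had 1291 and 1955 in Lgr6-high cells, against 82.2 and 183 in Lgr5-high cells. Its ratio of 3.70 ± 0.39 was smaller than that of probe a but in the same direction, with Lgr5-high cells above background on both arrays. Across the alternatives the Serpinb2 ratio ranged between 3.23 and 6.73, and the gene was called in 11 of 11. The lowest came with the background model fitted on all spots, where arrays 1 and 2 gave 4.98 and 1.47. These alternatives are not all separate: the authors' table repeats the scanner's ratios, and limma and the setting without a filter reuse the ratio of 4.81.

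Serpinb1a, an inhibitor of neutrophil elastase and related proteases, had levels of 218 and 359 in Lgr6-high cells, against 110 and 147 in Lgr5-high cells. All signals were above background, and the ratio was 1.14 ± 0.21 (2.20-fold). Array 1 alone gave 0.98 and no call. Serpinb10, known in human as bomapin of bone marrow cells, had 120 and 220 in Lgr6-high cells, against 70.3 and 90.9 in Lgr5-high cells. Neither array gave a Lgr5-high signal above background, so by the mean of both arrays Serpinb10 was at least 2.03-fold higher in Lgr6-high cells. This call rested on array 2, since array 1 alone gave 0.77. The other Serpinb10 probe was at background throughout, with 0.07 ± 0.18. Both genes also lost the call without background subtraction (0.75 and 0.56 for Serpinb1a and Serpinb10) and with the background model fitted on all spots (0.61 and 0.45). With median centring Serpinb1a had -0.02 and 2.91 and Serpinb10 had 0.48 and 2.49 on arrays 1 and 2, which gave no call for either.

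The other 3 measured clade B serpins were not called. Serpinb11, which in mouse inhibits trypsin-like proteases, had 103 and 228 in Lgr6-high cells, against 72.0 and 91.4 in Lgr5-high cells, where it was at background on both arrays. Its ratio was 0.92 ± 0.57, at least 1.89-fold, with 0.52 on array 1 and 1.32 on array 2. The scanner's ratio of Serpinb11 was 3.43, a call. Serpinb5, or maspin, an epithelial serpin that does not inhibit proteases, had 7877 and 6481 in Lgr6-high cells, against 4373 and 5766 in Lgr5-high cells. Its ratio was 0.51 ± 0.48, and it became -0.35 with the background model fitted on all spots. Serpinb6a, an inhibitor of cathepsin G in mouse, had the smallest mean ratio of the 6, with levels of 254 and 339 in Lgr6-high cells, against 191 and 241 in Lgr5-high cells, and a ratio of 0.45 ± 0.06.

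**Figure D2:**
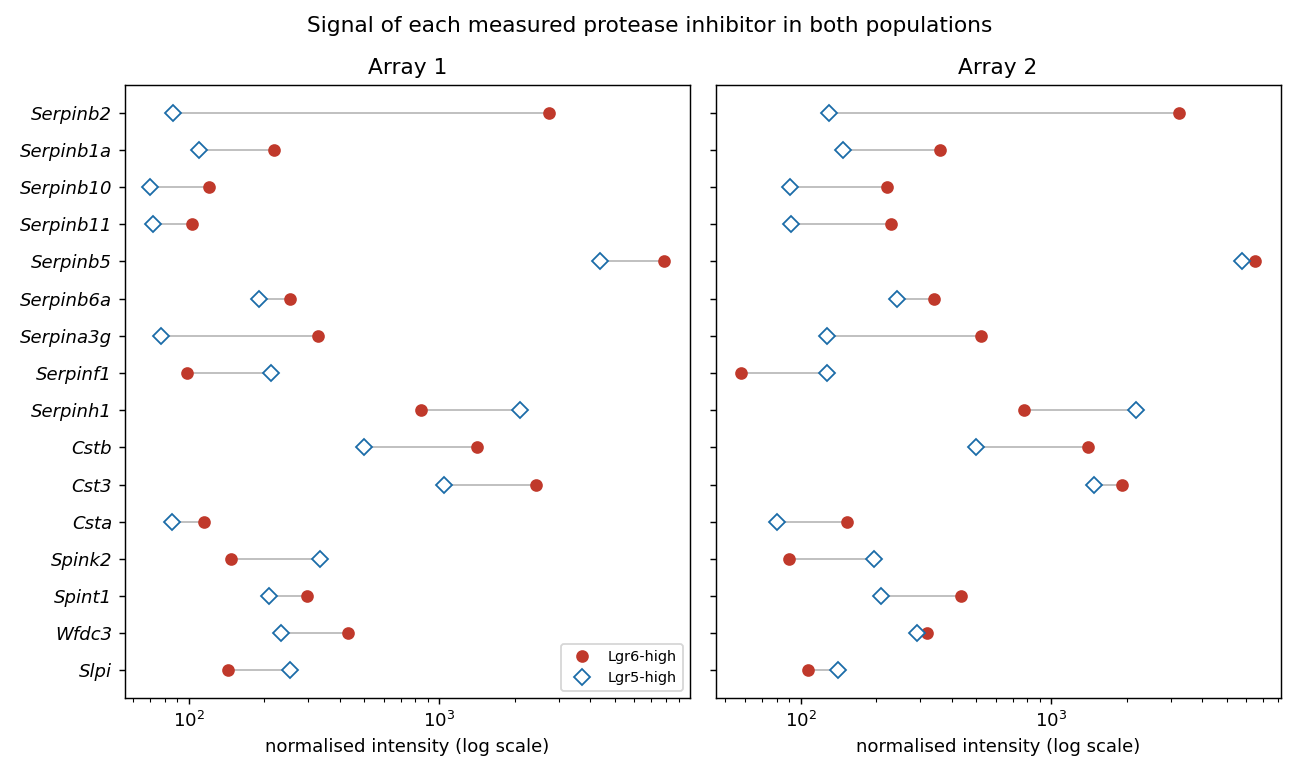
Normalised intensity (x axis, log scale) of the 16 measured members in Lgr6-high cells (filled circles) and Lgr5-high cells (open diamonds), with array 1 in the left panel and array 2 in the right. Serpinb2 stands at 2729 in Lgr6-high cells and 86.4 in Lgr5-high cells on array 1, while the symbols of Serpinb5 and Wfdc3 nearly meet on array 2. Levels of different rows come from different probes and are not comparable.

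Clade B serpin genes lie in a pair of arrays in the mouse genome, and the measured members were spread over both. By the RefSeq annotation, 12 of them follow each other on chromosome 1 with no other coding gene between, in the order Serpinb5, Serpinb12, Serpinb13, Serpinb3a, Serpinb3d, Serpinb3b, Serpinb3c, Serpinb11, Serpinb7, Serpinb2, Serpinb10 and Serpinb8. Of these 12, all had probes and 4 were measured. Of those 4, Serpinb2, Serpinb10 and Serpinb11 fell within the last 5 genes of the row. Serpinb10 and Serpinb11 passed the filter only through Lgr6-high cells, which favours a positive ratio. A pattern along the row was not tested. Serpinb7 was above background on 1 array in Lgr6-high cells, and Serpinb8 on 1 array in each population, so that neither gene of that stretch passed. None of the 6 genes between Serpinb5 and Serpinb11 gave a signal above background. Of 16 genes in the row on chromosome 13, 13 had member probes and only the outermost pair, Serpinb1a and Serpinb6a, was measured.

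**Figure D3:**
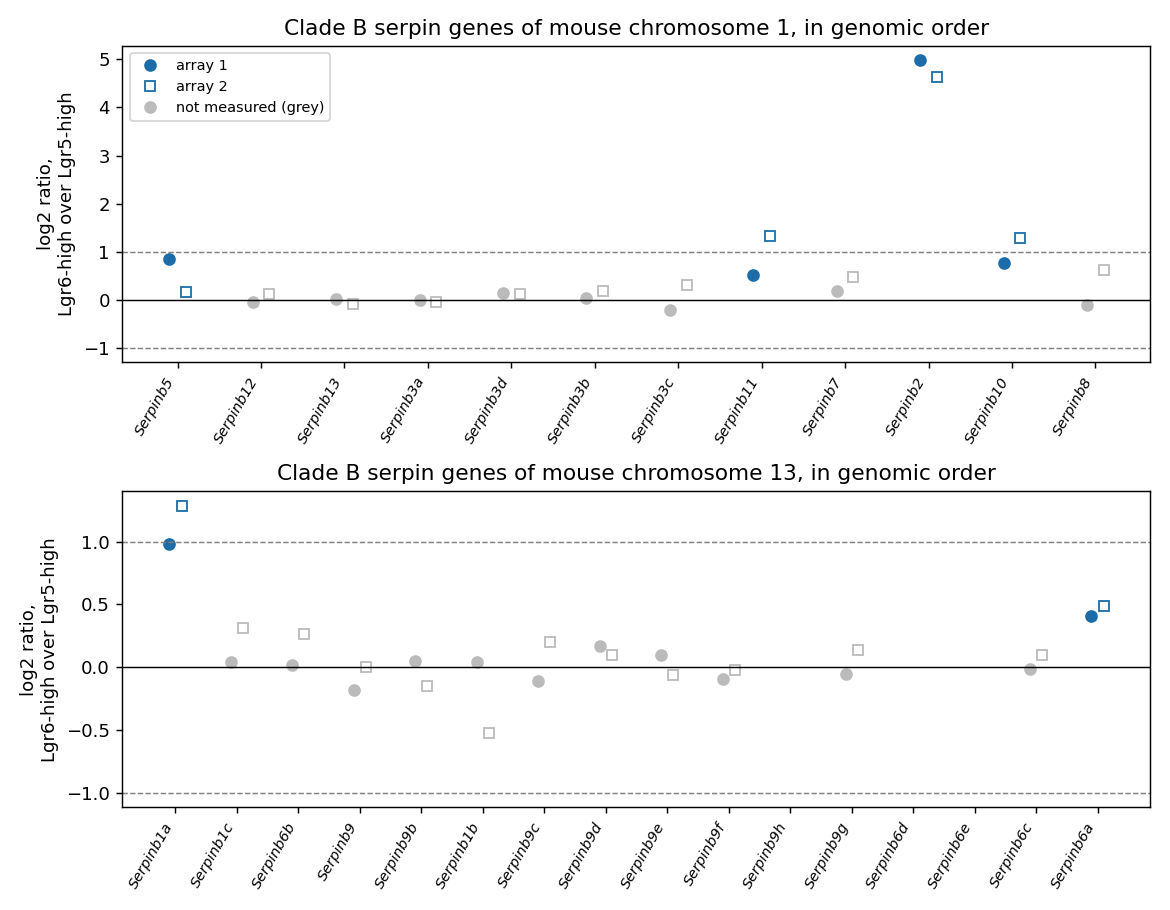
Log2 ratio of Lgr6-high over Lgr5-high (y axis) for the clade B serpin genes of chromosomes 1 and 13 in genomic order (x axis, evenly spaced). Filled circles are array 1 and open squares array 2; blue genes passed the filter and grey genes did not, and Serpinb9h, Serpinb6d and Serpinb6e have no member probe. On chromosome 1 the blue genes are Serpinb5, Serpinb11, Serpinb2 and Serpinb10, and on chromosome 13 those at either end.

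The promoters of Serpinb2, the next gene Serpinb10, and Serpinb11, which lies beyond Serpinb7, are printed as those of measured genes that lie near each other. Their ratios were positive, but so were those of all 6 measured clade B serpins, and Serpinb11 was not called. Shown are the 250 bases before the start site on the plus strand, from RefSeq, build GRCm38.p6. Serpinb2 has 2 start sites there, and the window of the first is printed. TATAAA lies at -29 from the first site and at -116 from the second, and TGAATCA at -94 and -181. The full windows, with 50 more bases after the start, are chr1:107511173-107511472, chr1:107528753-107529052 and chr1:107362064-107362363. Capitals mark matches to TGANTCA and to TATAAA.
Serpinb2: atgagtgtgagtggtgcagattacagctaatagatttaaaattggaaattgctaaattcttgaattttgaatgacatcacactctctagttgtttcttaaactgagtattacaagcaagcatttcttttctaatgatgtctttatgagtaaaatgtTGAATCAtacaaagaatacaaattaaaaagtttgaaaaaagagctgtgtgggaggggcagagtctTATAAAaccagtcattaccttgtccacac
Serpinb10: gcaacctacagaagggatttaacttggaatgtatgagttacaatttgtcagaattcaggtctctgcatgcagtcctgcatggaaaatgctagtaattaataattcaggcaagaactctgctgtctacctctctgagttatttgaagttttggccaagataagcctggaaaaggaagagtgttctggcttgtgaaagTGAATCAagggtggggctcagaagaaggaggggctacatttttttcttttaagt
Serpinb11: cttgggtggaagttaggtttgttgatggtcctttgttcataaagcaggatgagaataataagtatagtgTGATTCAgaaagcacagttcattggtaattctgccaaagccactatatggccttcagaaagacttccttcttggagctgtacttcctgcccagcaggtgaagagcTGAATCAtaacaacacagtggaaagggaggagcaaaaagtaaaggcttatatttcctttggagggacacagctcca
TGANTCA holds the letters of the AP-1 site with any base in the middle, and the AP-1 site proper, TGACTCA or its complement, was searched beside it. Both strands of the full windows were read. TGANTCA was found in 5 of the 14 measured members with a promoter available, namely Serpinb2, Serpinb10, Serpinb11, Serpinb5 and Spint1. Of these, Serpinb2 and Serpinb10 were called. All but Spint1 lie in the row on chromosome 1, and whether promoters of that row share letters by descent was not tested. Over all 32851 promoters the share was 7.81%. Members were counted by gene over 18 promoters, whereas that share is per promoter. No promoter was available for Serpinb1a and Cstb, both called higher in Lgr6-high cells. In the clade B genes the middle base was A or T, and TGACTCA occurred in Spint1 alone of the 14, beside 5.20% of all promoters. TATAAA was found in Serpinb2 only (13.6% of all promoters), GAANNTTC, a heat shock element pair, in Serpinb5 and Wfdc3 (7.86%), TGACGTCA, the cyclic AMP response element, in none (1.79%), and the NF-kappaB motif in Serpina3g and Serpinh1 (8.46%). These motifs were chosen with the ratios known, every TGACTCA match is also a TGANTCA match, and a match describes letters and not binding.

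Outside clade B the serpins were mostly too dim to read. Of 22 genes of clades A, C and D on the array, which include the antitrypsin and antichymotrypsin families and antithrombin, Serpina3g alone was measured. Serpina3g, an antichymotrypsin relative that in mouse inhibits lysosomal cathepsins, had levels of 329 and 522 in Lgr6-high cells, against 77.2 and 127 in Lgr5-high cells. The arrays differed little, with 2.09 and 2.04, for a ratio of 2.07 ± 0.04 (4.19-fold), and Lgr5-high cells were above background on 1 array. The ratio was 1.25 with no call when the background model was fitted on all spots, since array 2 then gave 0.41, and 4.22 with the scanner's ratios. Serpina3m and Serpina9 were above background in some channels only and did not pass.

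Of 9 genes of clades E to I 2 were measured, and both were called higher in Lgr5-high cells. Serpinh1, or Hsp47, is a chaperone of procollagen in the endoplasmic reticulum and inhibits no protease. It had 844 and 774 in Lgr6-high cells, against 2102 and 2170 in Lgr5-high cells. All 4 signals were above background and the ratio was -1.40 ± 0.12, so that Serpinh1 was 2.64-fold higher in Lgr5-high cells. With median centring in place of loess the arrays gave -3.56 and 0.83, opposite signs and no call. Serpinf1, pigment epithelium-derived factor, is a secreted serpin that restrains blood vessel growth. Its levels were 98.1 and 57.8 in Lgr6-high cells, at background on both arrays, against 213 and 127 in Lgr5-high cells. Serpinf1 was thus at least 2.18-fold lower in Lgr6-high cells, with -1.12 and -1.13 on arrays 1 and 2. The other Serpinf1 probe was at background in Lgr6-high cells and above it in Lgr5-high cells on 1 array, with a ratio of -0.03 ± 0.03. Serpinf1 lost the call without background subtraction (-0.59) and with the background model fitted on all spots (-0.61).

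Fibroblast markers moved in the direction of Serpinh1 and Serpinf1. Of 8 listed markers 6 were measured and 5 were called higher in Lgr5-high cells, among them Col1a2 (-2.63 ± 0.22), Col1a1 (-2.61 ± 0.34) and Col3a1 (at least 5.28-fold). Their summed intensity was 901 and 470 in Lgr6-high cells, against 3614 and 2200 in Lgr5-high cells, and 3 of the 6 were at background in Lgr6-high cells on both arrays. Of 8 endothelial and mural markers 3 were measured and all 3 were called higher in Lgr5-high cells, with sums of 533 and 244 in Lgr6-high cells against 2453 and 2044 in Lgr5-high cells. Both red cell markers were called higher in Lgr5-high cells, with sums of 485 and 355 in Lgr6-high cells against 1255 and 1042 in Lgr5-high cells. Of 4 melanocyte markers only Dct was measured, at least 2.94-fold lower in Lgr6-high cells, and of 4 Schwann cell markers only Mbp, which was higher in Lgr6-high cells (1.85 ± 0.10). None of 8 leukocyte markers passed the filter. The part of these cells in the ratios of Serpinh1, Serpinf1 and Spink2 was not tested.

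**Figure D4:**
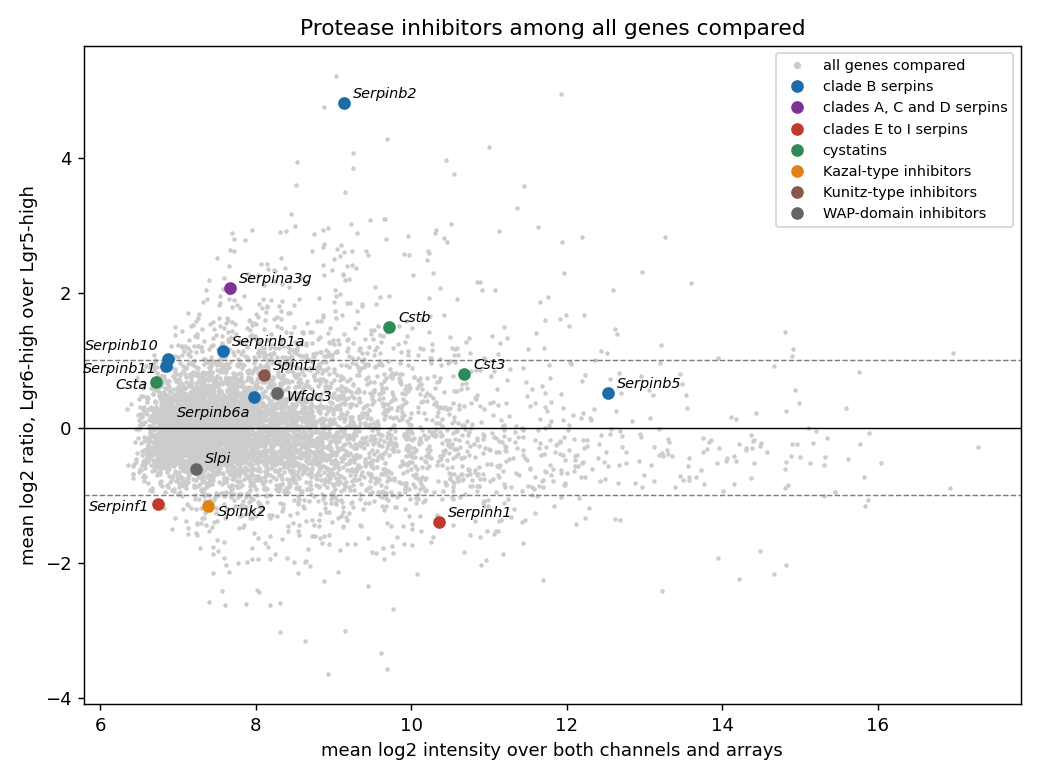
Mean log2 ratio of Lgr6-high over Lgr5-high (y axis) against mean log2 intensity (x axis) for the 6195 genes compared (grey) and the 16 measured members (coloured by family), with dashed lines at 2-fold. Serpinb2 at 4.81 lies at the upper edge of all genes, Serpinh1 at -1.40 is the lowest member, and 8 members lie between the dashed lines.

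All 3 cystatins of the list were measured, and all 3 ratios were positive. Cstb, or stefin B, an inhibitor of cysteine cathepsins in the cytosol, was read best. Probe a had 1418 and 1401 in Lgr6-high cells, against 502 and 499.9 in Lgr5-high cells, and the populations were equally far apart on both arrays. The ratio was 1.49 ± 0.01 (2.81-fold). Probe b was dimmer, with 167 and 235 in Lgr6-high cells against 111 and 131 in Lgr5-high cells, and its ratio of 0.72 ± 0.18 was less than 2-fold. Cstb kept its call with the mean of the probes, and lost it with median centring in place of loess, where the arrays gave -0.60 and 3.67.

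Cst3, or cystatin C, a secreted inhibitor of cathepsins, had 2434 and 1916 in Lgr6-high cells, against 1047 and 1482 in Lgr5-high cells. Its ratio of 0.79 ± 0.60 was uneven between the arrays, with 1.22 on array 1, past 2-fold, and 0.37 on array 2. Csta (Csta1 in RefSeq), or stefin A, which in human is a component of the cornified envelope, had 115 and 153 in Lgr6-high cells, against 85.4 and 80.3 in Lgr5-high cells. Its ratio was 0.68 ± 0.35, with Lgr5-high cells above background on 1 array, and its other probe was at background throughout. The scanner's ratios called Cst3 (1.06) and Csta (2.47).

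The Kazal, Kunitz and WAP families were mostly too dim to read. Of 8 Kazal-type genes only Spink2 passed, a gene best known as an inhibitor of acrosin in sperm. It had 147 and 89.6 in Lgr6-high cells, above background on 1 array, against 334 and 195 in Lgr5-high cells. The ratio was -1.15 ± 0.04, so Spink2 was 2.22-fold higher in Lgr5-high cells. The call was lost when no background was subtracted (-0.74), with the background model fitted on all spots (-0.66) and with median centring (-1.27, with 0.01 on array 2). Spink5, whose product LEKTI inhibits epidermal kallikreins, was bright enough to read in 1 channel only, that of Lgr6-high cells on array 2, and did not pass.

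Of the Kunitz-type genes Spint1 passed, while Spint2 and Spint4 were at background. Spint1, or HAI-1, inhibits matriptase and the activator of hepatocyte growth factor at the epithelial surface. Its brighter probe had 295 and 437 in Lgr6-high cells, against 209 and 210 in Lgr5-high cells. The ratio of 0.78 ± 0.40 was past 2-fold on array 2 alone (1.06) and by the scanner's ratio (1.11), and the dimmer probe had 0.33 ± 0.40. Of 9 WAP-domain genes, Slpi and Wfdc3 were measured. Slpi, a secreted inhibitor of leukocyte elastase, had 144 and 107 in Lgr6-high cells, above background on 1 array, against 254 and 140 in Lgr5-high cells, with a ratio of -0.60 ± 0.30. The scanner's ratio of Slpi was -1.36, past 2-fold. Wfdc3 had 433 and 317 in Lgr6-high cells, against 233 and 291 in Lgr5-high cells, and a ratio of 0.51 ± 0.54. The other Slpi probe was at background throughout, and the other Wfdc3 probe and Wfdc2 were above it in some channels only.

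**Figure D5:**
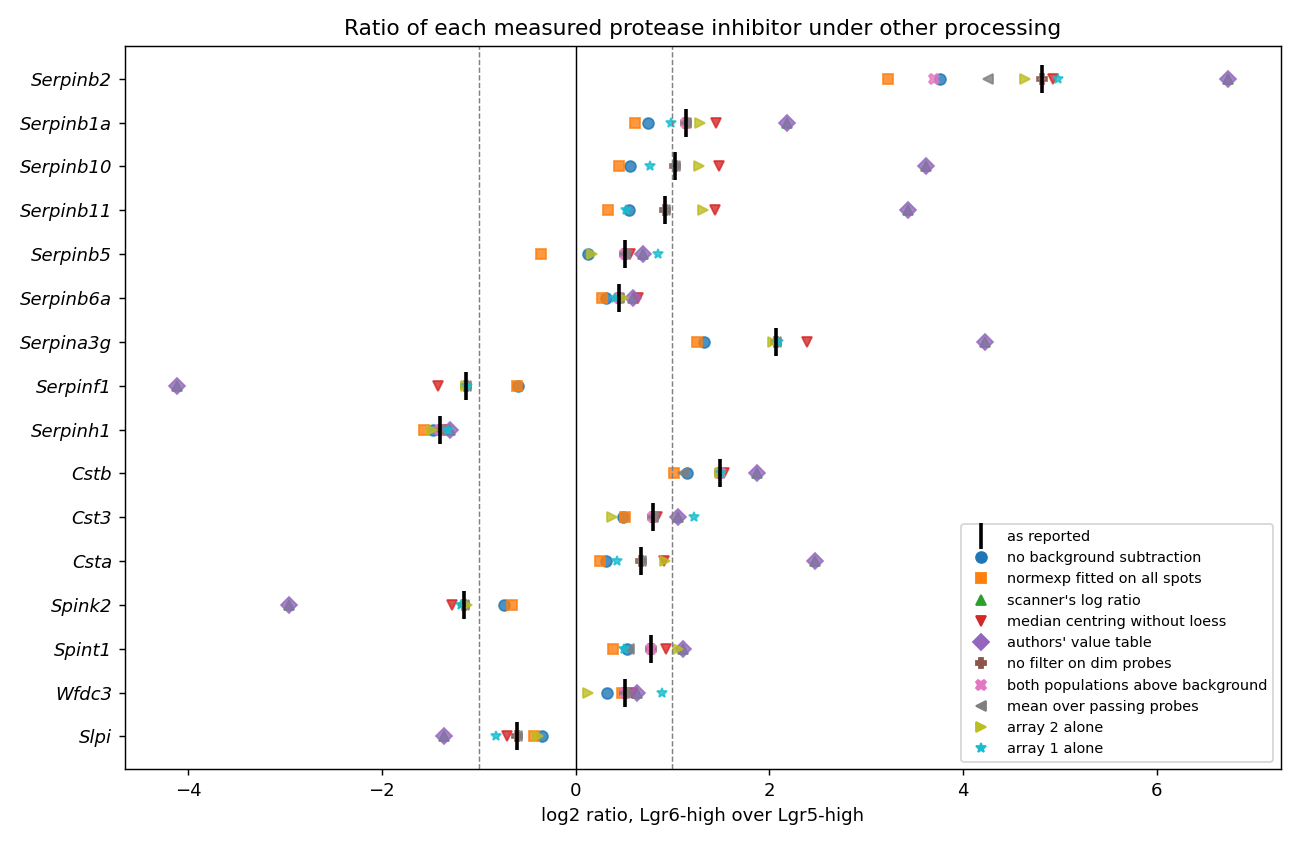
Log2 ratio of Lgr6-high over Lgr5-high (x axis) for each measured member as reported (black bar) and under 10 other ways of processing (symbols), with dashed lines at 2-fold; the scanner's ratios and the authors' value table coincide. Serpinf1, Serpinb2, Serpinb10, Serpinb11 and Serpina3g spread widest, mostly by the scanner's ratios, and Serpinh1 has the narrowest range, -1.56 to -1.29.

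Proteases, only some of them targets of these inhibitors, and related genes were read from lists, as were inhibitors outside the naming rule. Of 27 trypsin-like and chymotrypsin-like proteases and related genes of epithelium on the array 9 were measured, and 4 were called, all higher in Lgr6-high cells, with a list median of 0.96. They included the secreted Htra1 (2.29 ± 1.16), Prss23 (1.29 ± 0.42) and the kallikrein Klk7 (1.22 ± 0.12), a protease of corneocyte shedding. St14, the matriptase that Spint1 inhibits, had 0.88 ± 0.04 and was singled out after its value was seen. Among 17 genes of plasminogen activation and protease sensing, 8 were measured and 2 were called higher in Lgr6-high cells, the annexin Anxa2 (1.04 ± 0.10) and tissue factor, F3 (1.01 ± 0.23), with a list median of 0.38. Plat, the tissue plasminogen activator, had -0.24 ± 0.003, and Plau, the urokinase that Serpinb2 inhibits, did not pass the filter. These 2 genes were also singled out afterwards.

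The list of cathepsins and legumain, whose cysteine proteases are targets of cystatins and which also holds aspartic and serine proteases, had calls in both directions. Of 15 on the array 9 were measured, and Ctsh (2.61 ± 0.14), the retroviral-like aspartic protease Asprv1 (1.48 ± 0.25) and 1 more gene were called higher in Lgr6-high cells, while Ctsz (-1.64 ± 0.54) was higher in Lgr5-high cells. The list median was 0.03. None of 9 leukocyte and mast cell serine proteases, which include targets of Slpi and Serpinb1a, passed the filter. Of 36 further inhibitors 12 were measured and 4 called. Cst6, a cystatin that inhibits legumain and cathepsin L (3.96 ± 0.48), and 1 more gene were higher in Lgr6-high cells, and Timp2, an inhibitor of metalloproteases (-1.85 ± 0.41), and Birc5 (-1.73 ± 0.38) in Lgr5-high cells. The median of that list was -0.05.

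Markers of skin compartments were read beside the epithelial inhibitors. Of 9 suprabasal markers 7 were measured and 5 were called higher in Lgr6-high cells, with summed intensities of 25623 and 20411 in Lgr6-high cells against 5459 and 5723 in Lgr5-high cells. Krt10 (3.58 ± 0.43), Sprr1a (2.51 ± 0.14) and Krt1 (at least 4.68-fold) led them. Upper follicle markers were called higher in Lgr6-high cells for 5 of 7, but not Krt17 and Lrig1. Cst6, already counted among the further inhibitors, is among these 5. Bulge and hair germ markers were called higher in Lgr5-high cells for 5 of 7, but not Krt15 and Sox9. The sums of both lists changed direction between the arrays. Upper follicle sums were 58829 and 36929 in Lgr6-high cells, against 36162 and 98839 in Lgr5-high cells. Bulge and hair germ sums were 46285 and 30456, against 18616 and 36873. Of 5 basal epidermis markers 3 were called higher in Lgr6-high cells, but not Krt14 and Krt5. On arrays 1 and 2 Krt14 had 2.24 and -0.10, and Krt5 had 1.82 and -0.15. The sums of that list were 190720 and 93029, against 49856 and 93675, so that they nearly met on array 2. The part of cell composition in the ratios of Serpinb2, Cstb and the other called inhibitors was not tested.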

How the data were processed

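Each array was deposited as a scanner table, in which the authors give spot intensity and local background intensity in each dye on a linear scale, together with flags (other values of 0 or 1) for spots above background and for outliers. Per the file headers the tables come from Agilent Feature Extraction 10.5.1.1, and per the submitters' processing notes from version 9.5.3. The deposited tables also hold the software's log10 ratio of Cy5 over Cy3. The authors' value table holds the same log10 ratios turned to Lgr6-high over Lgr5-high. Labelling used 150 ng of total RNA, per the labels. Probe positions are on mm9.

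In R 4.3.3 with limma 3.58.1, background was corrected by normexp (offset 50) fitted on spots without an outlier mark, the ratios of each array were loess-normalised (control spots had weight 0), and marked spots (139 and 204) were left out. Levels were scaled between arrays by Aquantile. Spots of a probe were averaged. A gene was read from its passing probe with the highest mean intensity. Genes were named by accession, symbol or synonym in RefSeq (GRCm38.p6); 25097, 6333 and 1640 probes matched. Where 1 population was at background on both arrays, the fold is a lower bound against the higher of its own level and the lowest level above background. The call and limma functions were tested on simulated data.

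Every measured member is named, and of each other list at most 3 called genes. The members and lists were chosen with earlier results of these data known. The alternatives tried were no background subtraction, normexp on all spots, the scanner's ratios, the authors' table, median centring, no or a stricter filter, the mean of probes, each array alone, and limma with Benjamini-Hochberg adjustment. Results for 1 member gene are not reported here.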

Additional observations from a re-analysis of the deposited data

How the results depend on the processing

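Over the alternatives run, the mean ratio of each of the 8 called members kept its sign, and Serpinb2 was called in all 11. The members called higher in Lgr6-high and Lgr5-high cells, 5 and 3 as reported, were 3 and 1 without background subtraction, 2 and 1 with normexp fitted on all spots, 2 and 1 with median centring without loess, 9 and 4 by the scanner software's ratios, which the value table repeats, and 3 and 1 with both populations above background, where 9 members were left. All genes called, 451 and 295 as reported, were 212 and 204, 124 and 151, 134 and 57, and 958 and 958 under the first 4 of these. Each array alone gave 4 to 7 and 3 members, and 434 to 611 and 315 to 471 genes. Limma, whose p-values cover the spread between hybridisations only, called 5 and 3 members and 458 and 302 genes. The remaining alternatives kept each count within 1.5 times. No paired analysis was possible because each ratio already pairs the populations within an array, which leaves no replicate number to block on. Signal over background left 63 of 79 genes unmeasured.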

Other observations

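Current RefSeq symbols would bring 7 further probes under the naming rule, which used the names in the files. A Wfdc18 probe, listed as Expi, passed the filter. It had 75.6 and 60.6 in Lgr6-high cells, at background on both arrays, against 124 and 103 in Lgr5-high cells, which makes Wfdc18 at least 1.60-fold lower in Lgr6-high cells, under the 2-fold minimum. The other Wfdc18 probe cleared background on 1 array, in Lgr5-high cells. The probes of Wfdc17, Wfdc21, Serpina3j and Serpinb6d and a further Serpinb6a probe gave no signal above background.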
